A study of Mus musculus with 8 samples.

Results

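The nuclear genes of oxidative phosphorylation were followed across the sorted cell populations of the newborn mouse inner ear. They were taken by symbol alone: Nduf followed by a, b, c, s or v, Cox4 to Cox8, Uqcr, Atp5, Sdha to Sdhd and Cyc1. This gave 87 of the 15275 genes measured. Of the 87 genes, 80 encode structural subunits, namely 36 of complex I (7 of them of its catalytic core), 4 of complex II, 9 of complex III, 16 of complex IV and 15 of complex V. The remaining 7 are Ndufaf1 to Ndufaf4, which encode complex I assembly factors, Atp5s and Atp5sl, and Cox4nb. Cox4nb is no subunit of complex IV: it is an older symbol of Emc8, a subunit of the membrane protein complex of the endoplasmic reticulum. Its gene overlaps the start of Cox4i1, on the opposite strand.

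Oxidative phosphorylation takes place in the inner mitochondrial membrane. Electrons enter from NADH at complex I (NADH dehydrogenase) and from succinate at complex II (succinate dehydrogenase), pass by ubiquinone to complex III (cytochrome bc1) and by cytochrome c to complex IV (cytochrome c oxidase), which reduces oxygen. Complexes I, III and IV pump protons, and complex V, the ATP synthase, uses the gradient to make ATP. Most subunits come from the nuclear genes described here and a few from mitochondrial DNA. Defects of mitochondrial DNA are a known cause of hearing loss.

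The mRNA-seq data comprised 8 libraries from inner ears of ICR mice, an outbred strain, at postnatal day 0 by the labels and methods, although the text of the study also names a later day. The labels give no treatment or mutation. Cells had been sorted with antibodies to CD326, CD49f and CD34 into epithelial cells, mesenchyme, neurons and vascular endothelium, and each of the 4 populations gave 1 cochlear and 1 vestibular library. No library has a replicate, so the cochlear and the vestibular library of a population stand in for 2 samples of it in the tests below. The labels do not say how many mice were pooled. Each gene has 1 signal value per library. Sorted by size, the values are identical in all 8 libraries and none is under 20, called the floor here, so the depth of each library is unknown. The sources used here do not say whether values were divided by gene length. Values are therefore compared across libraries, for 1 gene or for the sum over a fixed list of markers, and not between genes. Such sums follow mostly the genes with the largest values.

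Markers of the sorted cells qualified some of these labels. The summed signal of 9 endothelial markers was 273100 in cochlear and 119200 in vestibular endothelium, against 647.3 to 12750 in the other 6 libraries. That of 9 markers of otic epithelium was 240400 and 284200 in the cochlear and vestibular epithelium, and at most 13580 elsewhere. The libraries labelled neurons were richest in glial RNA: 8 markers of Schwann cells and glia summed to 166000 in cochlear and 153500 in vestibular neurons, against 1677 to 19110 elsewhere. The 10 neuronal markers summed to 4638 in cochlear neurons and 687.5 in vestibular neurons, and none of them was highest in vestibular neurons. They summed to 5797 in cochlear and 4810 in vestibular epithelium, of which Isl1 gave 3054 and 1318. Tubb3, Nefh, Snap25, Elavl4 and Prph were highest in cochlear neurons, at 91.5 to 468.8. Nefm, Nefl, Isl1 and Stmn2 were highest in epithelium and Rbfox3 in cochlear endothelium. The term neurons thus stands here for the label of the sort. Vestibular neurons and vestibular endothelium stood apart in a further way. The otic epithelium markers summed to 1143 in cochlear and 13580 in vestibular neurons, and to 1046 in cochlear and 13460 in vestibular endothelium. For 9 mesenchymal markers the sums were 59070 in cochlear and 75790 in vestibular neurons, and 2526 in cochlear and 26490 in vestibular endothelium. Ranked over all genes, vestibular endothelium lay closer to vestibular neurons (Spearman rho 0.888) than to its cochlear counterpart (0.877). The 6 erythroid markers measured summed to 89550 in cochlear and 169800 in vestibular mesenchyme, against 260.3 to 5507 in the other 6 libraries. In such bulk samples fewer cells of a type and less RNA per cell cannot be told apart.

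As a group the respiratory genes varied little between the populations. All 87 genes were above the floor in at least 1 library and 80 in all 8. Among these 80 the highest of the 8 values was a median of 2.07 times the lowest, against 3.35 times among the 11220 genes of the whole table that were above the floor throughout. The ratio stayed under 2 for 45.0% of the respiratory genes and for 16.9% of all genes, and exceeded 4 for 3.75% and 40.9%. Among the 80, the 3 genes past 4 were Uqcrb, which encodes a subunit of complex III, and the assembly factor genes Ndufaf1 and Ndufaf4. The 7 members with a value at the floor are not in these shares. Of these, Ndufa4l2, Cox4i2 and Cox6b2 had a highest value of 15.26, 7.56 and 5.87 times the floor. Ndufb4, Cox7a1, Atp5g2 and Atp5l had 1.38 to 3.28 times the floor. The median ratio was lowest in complex II, at 1.56, and was 2.18 in the core and 2.17 in the accessory subunits of complex I, 1.96 in complex III, 1.99 in complex IV, 2.18 in the F1 part and 1.83 in the Fo part and stalk of complex V. The 4 assembly factor genes Ndufaf1 to Ndufaf4, called the complex I assembly group below, had a median ratio of 3.72. The medians rest on the genes above the floor throughout, 12 of 16 in complex IV, 8 of 10 in Fo and stalk and 28 of 29 in the accessory subunits of complex I. These shares are a description of 8 libraries, with no test.

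**Figure D1:**
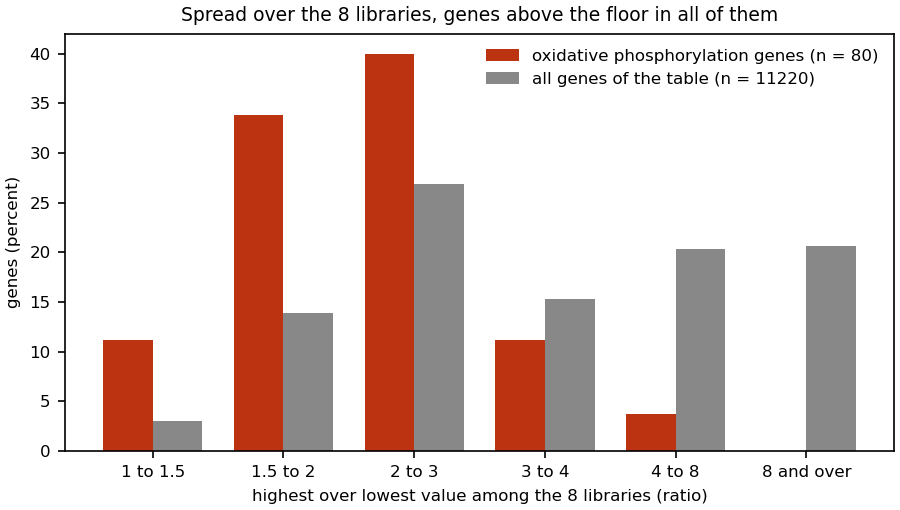
Percentage of genes (y axis) in each class of the ratio of the highest to the lowest value among the 8 libraries (x axis), for the 80 oxidative phosphorylation genes and the 11220 genes of the table that were above the floor in every library. These 80 genes are most frequent between 2 and 3, with 40.0% of them, and none of them reaches 8, where 20.6% of the 11220 genes lie. Ndufa4l2, at the floor in 4 libraries, is not among the 80.

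For each population, limma gave the difference from the mean over the remaining 3, with organ as a further term of the model and Benjamini-Hochberg adjustment over 15275 genes at a threshold of 0.05. Its p-values rest on the spread left within the cochlear and vestibular pairs, on 3 residual degrees of freedom, and not on spread between animals. Of the 87 genes, 1 passed. Ndufa4l2, which encodes a hypoxia-inducible relative of the complex IV subunit Ndufa4, was higher in neurons and lower in epithelium and in endothelium. In epithelium 0 members were called higher and 1 lower, with 7.27% and 6.68% of all genes called in those directions. In mesenchyme no member was called in either direction, against 1.82% and 1.51% of all genes. In neurons 1 was called higher and 0 lower, against 2.3% and 1.07%. In endothelium 0 were called higher and 1 lower, against 5.96% and 5.14%. Between cochlear and vestibular libraries 0 members were called, as were 0.0% of all genes in either direction. At an unadjusted p under 0.05 the counts of members higher and lower were 2 and 2 in epithelium, 2 and 2 in mesenchyme, 2 and 1 in neurons and 3 and 6 in endothelium. The shares of all genes at that level were 14.4% and 15.3% in epithelium, 10% and 10.9% in mesenchyme, 10.1% and 10.4% in neurons and 14.0% and 16.0% in endothelium. Between the organs 0 members reached it in either direction, against 3.15% of all genes higher and 3.16% lower in cochlear libraries.

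Ndufa4l2 (chromosome 10, 127514967 to 127517154, plus strand, GRCm38) is known as a target of hypoxia-inducible factors and, in mouse brain, as a marker of pericytes, the contractile cells around capillaries. It had values of 126.1 in cochlear and 305.1 in vestibular neurons, against 80.3 and 116.6 in cochlear and vestibular mesenchyme and the floor of 20 in both epithelial and both endothelial libraries. Both neuron libraries were thus above all other 6, and 4 libraries had no signal over the floor. On the log2(value + 1) scale the difference was 2.49 in neurons (SE 0.32, adjusted p = 0.0423), -1.82 in epithelium (SE 0.32, adjusted p = 0.0322) and -1.82 in endothelium (SE 0.32, adjusted p = 0.0372). In mesenchyme it was 1.14 (SE 0.32, adjusted p = 0.139). Since the low side lies at the floor, these differences and their p-values depend on where the floor was set: with the floor subtracted, mesenchyme passed too, with 3.79 (adjusted p = 0.0441). In epithelium and in endothelium the cochlear and vestibular values are tied at the floor. Any spread within those pairs is hidden, although the SE rests on it. Without 1 epithelial or endothelial library the difference in neurons lay between 2.39 and 2.59. The calls were less stable, and leaving a library out also lowers the residual degrees of freedom of the fit. The one in neurons was lost whichever of the 8 libraries was left out, those in epithelium and in endothelium in 7 of 8 cases. The difference in neurons was 1.95 without vestibular neurons (adjusted p = 0.153), and the one in epithelium was -1.64 (adjusted p = 0.052).

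Markers of pericytes were examined beside Ndufa4l2. The summed signal of 7 genes of pericytes and smooth muscle, most of it from Rgs5 in vestibular neurons and from Pdgfrb (7824 and 9219 in cochlear and vestibular libraries) in mesenchyme, was 10580 in cochlear and 154700 in vestibular neurons and 12600 and 15320 in cochlear and vestibular mesenchyme, against 402.2 to 2630 in the 4 libraries where Ndufa4l2 was at the floor. Rgs5, a regulator of G protein signalling and a defining pericyte marker, had 6598 in cochlear and 147259.9 in vestibular neurons, 3701 and 5381 in cochlear and vestibular mesenchyme, and 91 to 1751 elsewhere. Kcnj8, a subunit of pericyte potassium channels, had 317.1 and 1368 in cochlear and vestibular neurons, 223.4 and 334.5 in cochlear and vestibular mesenchyme, and at most 70.8 elsewhere. Of the 7 genes, 4 were highest in vestibular neurons. Pdgfrb was highest in vestibular mesenchyme, at 9219, Des in cochlear mesenchyme, at 669.1, and Tagln in cochlear endothelium, at 200.4. The sum in cochlear neurons was under both mesenchymal sums, although Ndufa4l2 was higher there. The part of pericytes in the level of Ndufa4l2 was not tested. Cox4i2, the hypoxia-responsive isoform of the complex IV subunit Cox4, had its highest value, 151.1, in vestibular neurons as well, against 28.3 in cochlear neurons and 20 to 43.1 in the other 6 libraries. Its difference in neurons was 1.22 (SE 0.61, adjusted p = 0.36) and -0.042 without vestibular neurons. It rests on that library alone.

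**Figure D2:**
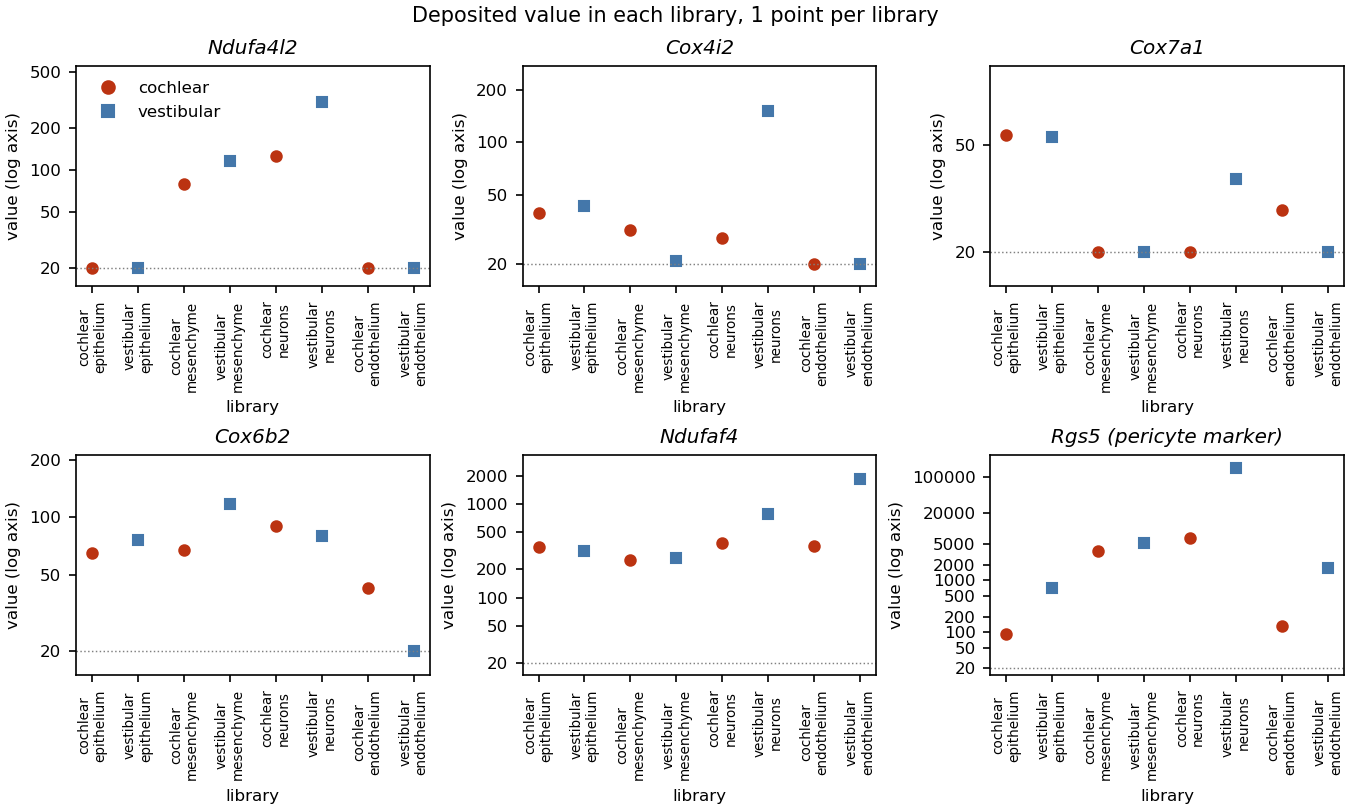
Deposited value (log axis) of the isoform genes Ndufa4l2, Cox4i2, Cox7a1 and Cox6b2, of the assembly factor gene Ndufaf4 and of the pericyte marker Rgs5 in each of the 8 libraries (x axis), 1 point per library, cochlear as circles and vestibular as squares, with the floor of 20 dotted. Vestibular neurons hold the highest value of Ndufa4l2 (305.1), Cox4i2 (151.1) and Rgs5 (147259.9), and vestibular endothelium that of Ndufaf4 (1854).

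Other tissue isoforms of complex IV reached the floor in some libraries, and the general isoforms of the same subunits varied less. Cox7a1, the isoform of heart and skeletal muscle, had 54.1 and 53.3 in cochlear and vestibular epithelium, against 37.4 in vestibular neurons, 28.6 in cochlear endothelium and the floor in the other 4 libraries. The epithelial pair lay above every other library, with a log2 difference of 1.15 (SE 0.28, adjusted p = 0.0638), short of the threshold. It passed after median-of-ratios scaling (adjusted p = 0.0405) and without the organ term (adjusted p = 0.039). Its counterpart Cox7a2 ranged only between 546 and 1068, and Cox7a2l, which encodes a factor of respiratory supercomplexes, between 1218 and 2034. Cox6b2, known as a testis isoform, had 42.8 in cochlear endothelium and the floor of 20 in vestibular endothelium, against 64.9 to 117.3 in the other 6 libraries (log2 difference in endothelium -1.43, SE 0.41, adjusted p = 0.0941). Its counterpart Cox6b1 ranged between 847.9 and 1760. Cox4i1, the general form of Cox4, ranged between 1888 and 3774 and Ndufa4, the general relative of Ndufa4l2, between 1034 and 2043. For Cox4i1 and Cox6b1 the lowest value was in vestibular endothelium and for Ndufa4 in vestibular neurons. Of the 3 genes of subunit c, the ring of the ATP synthase, Atp5g3 ranged between 2006 and 3205 and Atp5g1 between 206 and 366.8. Atp5g2 was at the floor in 5 libraries and had 56.5 in cochlear and 28.6 in vestibular endothelium (log2 difference in endothelium 0.91, SE 0.27, adjusted p = 0.104), and the difference was 1.45 without vestibular endothelium (adjusted p = 0.0378). Cox6a2, Cox8b and Cox8c, the muscle and germ cell forms, are not among the genes measured under these symbols.

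The catalytic subunits showed where the variation lay. In the complex I core, Ndufv2, an iron-sulphur protein gene of the NADH-oxidizing module, had 1747 in cochlear and 927.8 in vestibular neurons and 944.1 in cochlear and 532.6 in vestibular endothelium. Its 4 values in epithelium and mesenchyme lay between 1084 and 1162. Ndufv1, which encodes the subunit that holds the NADH site itself, had 1971 in cochlear and 868 in vestibular neurons and 1802 in cochlear and 723.4 in vestibular endothelium. Its 4 values in epithelium and mesenchyme lay between 1265 and 1437. For both genes the epithelial and mesenchymal libraries hardly differed, while the cochlear library was the higher of each neuronal and endothelial pair. Among other core genes, Ndufs1 stayed between 1254 and 1903, while Ndufs7 and Ndufs8 had their lowest values, 369.5 and 422.1, in vestibular endothelium. Ndufs3, which has a near-identical copy, lay between 114 and 234.4. Sdha, the flavoprotein of complex II, was steadier, between 2385 in vestibular endothelium and 3971 in cochlear epithelium, as were its membrane anchor genes Sdhc (1372 to 1818) and Sdhd (1140 to 1650). The difference of Sdha in endothelium was -0.47 (SE 0.15, adjusted p = 0.128). In complex III, Uqcrfs1, the Rieske iron-sulphur protein gene, stayed between 1012 and 1429. Uqcrc1, a core protein of the same complex, had 2787 in cochlear and 1282 in vestibular neurons and 3673 in cochlear and 1388 in vestibular endothelium, and Cyc1, cytochrome c1, 2142 and 1344 in the neurons and 2181 and 1018 in the endothelium. In vestibular endothelium both were under their 4 values in epithelium and mesenchyme, which lay between 2090 and 2675 for Uqcrc1 and between 1260 and 1560 for Cyc1. Atp5b, the catalytic beta subunit of the ATP synthase, had 18473 in cochlear and 21678 in vestibular neurons, against 11477 to 17510 in the other 6 libraries, and its partner Atp5a1 had its lowest value, 5866, in vestibular endothelium, against 8800 to 14471 elsewhere.

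**Figure D3:**
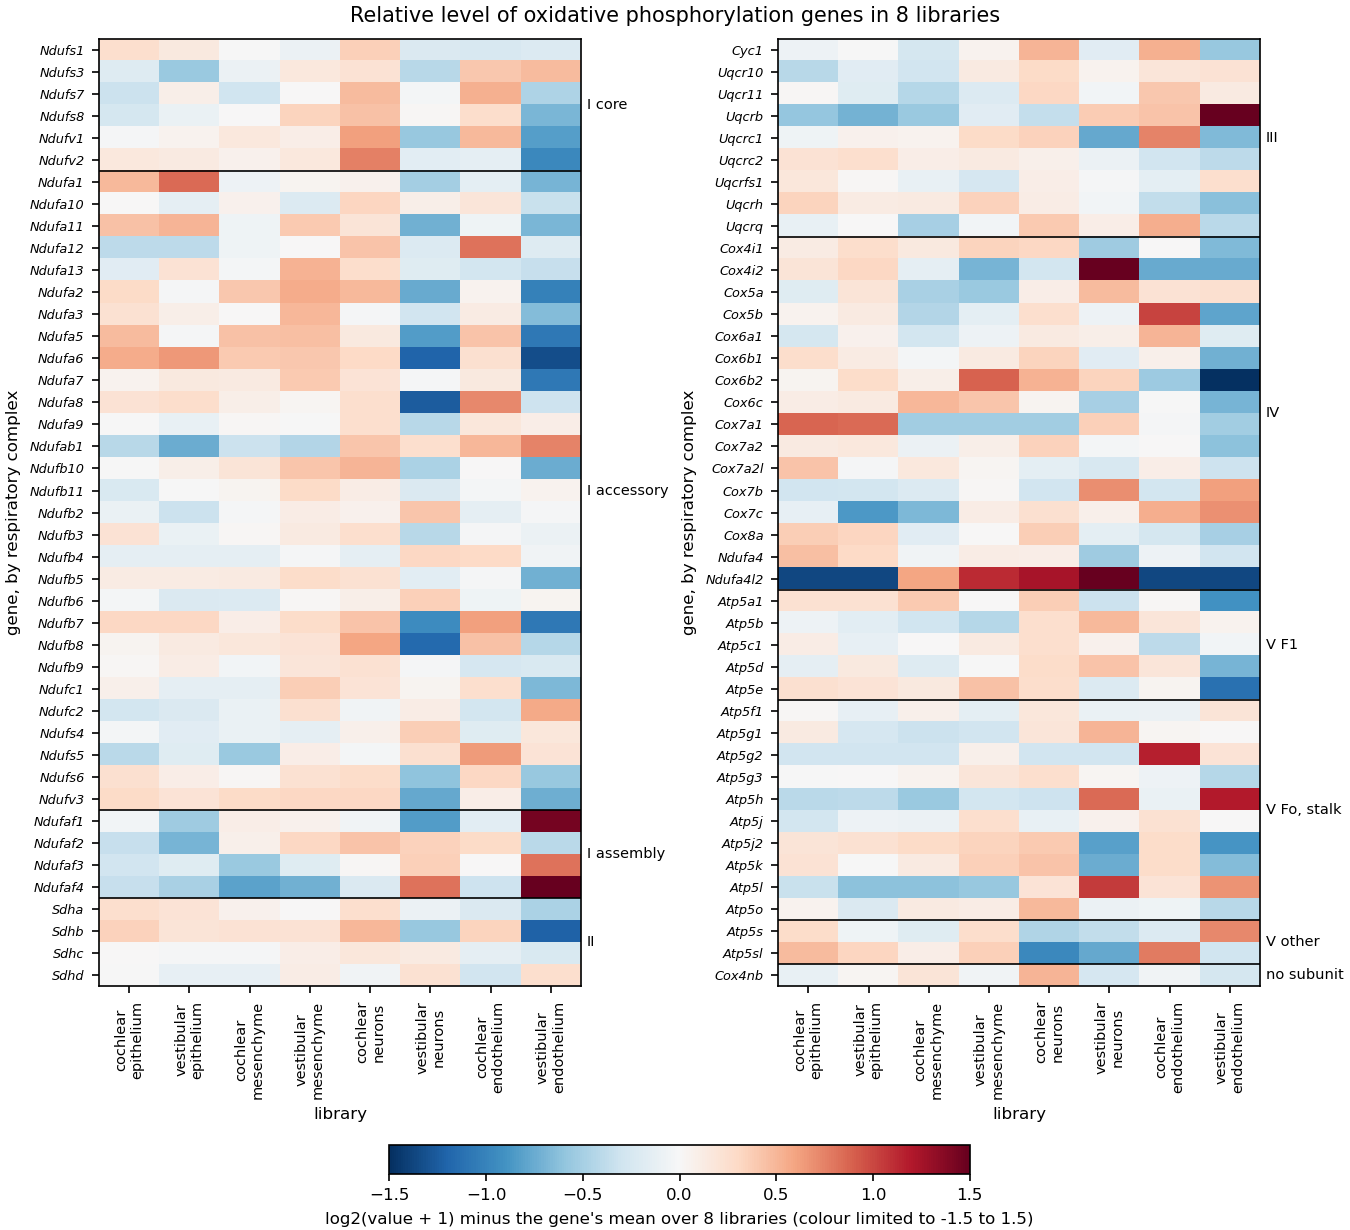
Relative level of the oxidative phosphorylation genes (rows, grouped by respiratory complex, without 1 member of the complex I core) in each of the 8 libraries (columns), as log2(value + 1) minus the mean of the gene over the 8 libraries, with colours limited to -1.5 to 1.5. The vestibular endothelium column is mostly blue, with a median of -0.42 over the 80 subunits, and the cochlear neuron column mostly red, with a median of 0.25.

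Among the 80 subunits the lowest value was in vestibular endothelium for 36 and in vestibular neurons for 11. Cochlear neurons held the highest value of 20 and the lowest of 0. The median difference over the 80 subunits was 0.01 in epithelium, 0.07 in mesenchyme, 0.10 in neurons and -0.24 in endothelium on the log2 scale, beside -0.07, -0.02, -0.04 and -0.03 over all genes. In endothelium it was -0.38 for complex IV, -0.36 for complex II, -0.34 for the F1 part of complex V and -0.23 for the core and -0.17 for the accessory subunits of complex I. It was positive, at 0.07, for complex III and 0.05 for the Fo part and stalk. The complex I assembly group, outside the 80, had 0.70. With 1 library left out, the median ran from -0.48 to 0.24 in the complex I core and from -0.42 to 0.44 in complex III, lowest without cochlear and highest without vestibular endothelium. It ran from -0.33 to -0.0037 in the accessory subunits of complex I and from -0.69 to -0.12 in complex IV. Taking the cochlear libraries alone, the endothelial median over the 80 subunits was -0.02, and taking the vestibular ones alone it was -0.45. In complex IV, Cox8a had -0.51 (SE 0.19, adjusted p = 0.16), next after Ndufa4l2, Cox6b2 and Cox4i2. In the complex I core Ndufv2 had -0.73 (SE 0.28, adjusted p = 0.168). In complex III, Uqcrh, the hinge protein gene, had -0.67 (SE 0.16, adjusted p = 0.0707), while Uqcrb had 1.34 (SE 0.36, adjusted p = 0.0833). In epithelium the accessory complex I genes Ndufa1, Ndufa6 and Ndufa11 had the largest positive differences after Cox7a1, at 0.89, 0.80 and 0.63 (adjusted p = 0.123, 0.324 and 0.294). The lowest there after Ndufa4l2 were Uqcrb at -0.86, Ndufab1, which encodes the mitochondrial acyl carrier protein, at -0.77 and Ndufaf2 at -0.69 (adjusted p = 0.197, 0.153 and 0.235). In neurons Atp5sl, which despite its symbol encodes an assembly factor of complex I, was lowest at -1.15 (SE 0.37, adjusted p = 0.182), with 146 in cochlear and 167.9 in vestibular neurons, against 231.6 to 492.6 elsewhere. Also in neurons, Atp5l had 0.84, Cox6b2 0.57, Ndufa8 -0.66, Ndufa6 -0.60 and Ndufaf1 -0.59. In endothelium Ndufaf4 had 1.17 and Ndufaf1 0.85. The lowest in mesenchyme were Ndufaf4 at -1.02 and Atp5l at -0.79, and the highest after Ndufa4l2 were Cox6b2 at 0.65 and Ndufa2 at 0.64. Next to these in mesenchyme, Cox5a, a complex IV subunit gene, had -0.69 (SE 0.18, adjusted p = 0.118) and Cox6c, another, 0.61 (SE 0.22, adjusted p = 0.218). Cox7a1 had -0.69 there too. None of these passed the test.

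The organs were also compared within each population, where 1 library stands against 1 and no test is possible. In epithelium 44 of the 87 genes were higher in the cochlear library and 39 lower (50.6% and 44.8%, against 51.2% and 37.9% of all genes), the median over the subunits was 0.00, and 0 genes differed over 2-fold in either direction, against 4.31% of all genes higher and 6.37% lower in cochlear epithelium. In mesenchyme 65 of 87 were lower in the cochlear library (74.7%, against 43.1% of all genes), by a median of -0.16 over the subunits, and again 0 differed over 2-fold, against 4.73% of all genes higher and 5.27% lower. The erythroid sum was also lower in cochlear mesenchyme, as given above, and its part in this was not tested. In neurons 63 of 87 were higher in the cochlear library (72.4%, against 46.9% of all genes), with a median of 0.33 over the subunits. There 12 were over 2-fold higher and 4 over 2-fold lower, against 12.2% and 12.1% of all genes. In endothelium 61 of 87 were higher in the cochlear library (70.1%, against 46.7% of all genes), with a median of 0.46, and 17 were over 2-fold higher and 4 lower, against 19.6% and 18.8% of all genes. Over all genes the median difference of each pair lay between 0.00 and 0.01. In neurons and endothelium the counts past 2-fold on the higher side were thus close to the share of all genes, and those on the lower side below it.

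**Figure D4:**
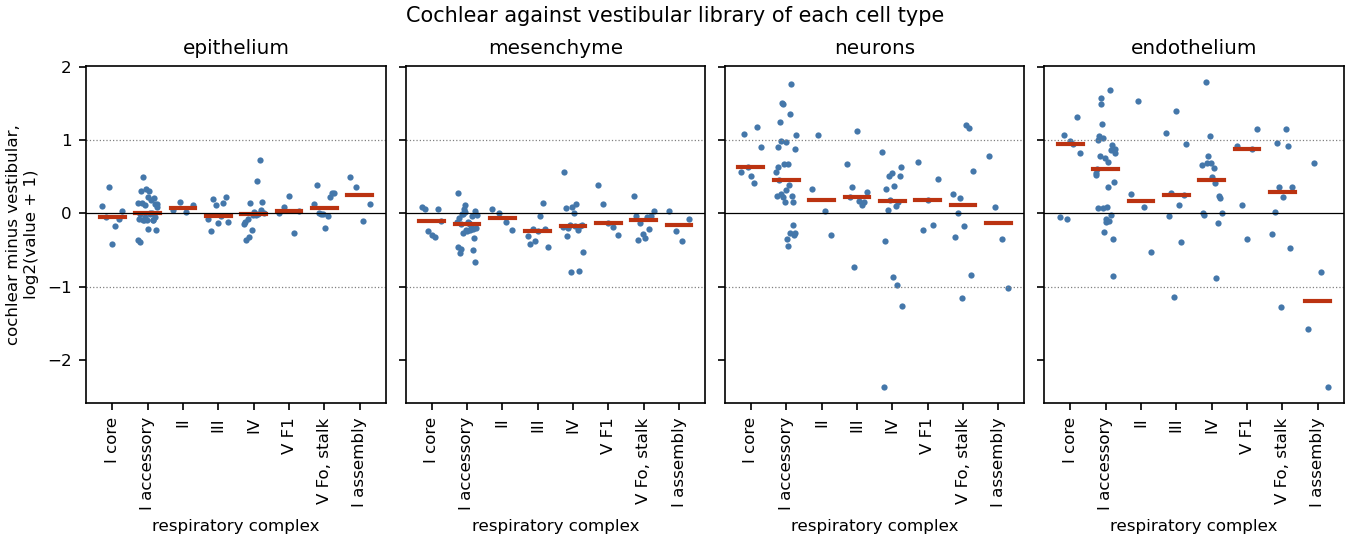
Cochlear minus vestibular difference on the log2(value + 1) scale (y axis) for each gene (points) of each respiratory complex (x axis) in the 4 populations, with the median of each group as a bar and dotted lines at 2-fold. Points of epithelium and mesenchyme stay within 2-fold, while the medians of the complex I core are 0.63 in neurons and 0.95 in endothelium.

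By complex, the cochlear minus vestibular median in neurons was largest for complex I, at 0.63 in its core and 0.45 in its accessory subunits, and 0.19, 0.23 and 0.17 for complexes II, III and IV, 0.19 for F1 and 0.11 for Fo and stalk. In endothelium it was 0.95 in the complex I core, 0.89 in F1, 0.61 in the accessory subunits of complex I and 0.46 in complex IV. It was 0.18 in complex II, 0.25 in complex III and 0.29 in Fo and stalk. Of the 4 genes Ndufaf1 to Ndufaf4, 3 were lower in cochlear than in vestibular endothelium, with a median of -1.19 over the 4. Ndufaf2 had 191.5 in cochlear and 118 in vestibular endothelium. Atp5sl, which also encodes an assembly factor of complex I but is not in that group, had 492.6 in cochlear and 231.6 in vestibular endothelium. Of the genes over 2-fold higher in a cochlear library, 9 were so in both pairs, 75.0% of those in neurons and 52.9% of those in endothelium. Among them were Ndufv1, Ndufa2, Ndufa6, Ndufa8, Ndufb7, Sdhb, Uqcrc1 and Atp5j2. For all genes those shares were 55.0% and 34.2%. In the model over all 8 libraries the organ difference was largest for Ndufa6 (0.75, SE 0.40) and Ndufa5 (0.74, SE 0.33), both accessory subunits of complex I, and lowest for Ndufaf4 (-0.84, SE 0.49), each with a limma adjusted p of 0.627. Next highest were Ndufb7 (0.72) and Sdhb (0.69), and next lowest Atp5h (-0.68), Uqcrb (-0.53) and Cox7b (-0.52). Without vestibular neurons and vestibular endothelium the organ difference was -0.049 for Ndufa6 and 0.026 for Ndufaf4.

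Ndufa6 had 738.6 in cochlear and 259.3 in vestibular neurons and 708.9 in cochlear and 236.9 in vestibular endothelium. In epithelium it had 883 and 937.6 and in mesenchyme 783.9 and 790.1 in the cochlear and vestibular libraries. The vestibular neuronal and endothelial libraries were the low ones, and the other 6 did not overlap them. Sdhb, the iron-sulphur subunit gene of complex II, had 1578 in cochlear and 753.5 in vestibular neurons, 1405 in cochlear and 483.1 in vestibular endothelium, 1417 in cochlear and 1276 in vestibular epithelium, and 1296 in cochlear and 1295 in vestibular mesenchyme. Its mesenchymal values were all but equal. Cox5b of complex IV had the widest cochlear excess in endothelium, 144.8 against 40.8 in the vestibular library, but has a near-identical copy. Ndufb8, an accessory gene of complex I, had the widest in neurons, 597.6 against 175.3 in vestibular neurons, with 406.9 to 456 in epithelium and mesenchyme. Ndufaf4 went the opposite way, with 380.5 in cochlear and 776.6 in vestibular neurons and 355.8 in cochlear and 1854 in vestibular endothelium, while epithelium and mesenchyme lay between 252.5 and 346.9. Ndufaf1 shared this in endothelium alone, with 163.9 in cochlear and 494.1 in vestibular endothelium, against 176.5 in cochlear and 102 in vestibular neurons. Subunit genes went that way too. Atp5h had 168.1 in cochlear and 377.6 in vestibular neurons and 195.5 in cochlear and 477.5 in vestibular endothelium. Cox7b had 688.4 in cochlear and 1360 in vestibular neurons and 695.8 in cochlear and 1284 in vestibular endothelium. Both have near-identical copies. Markers of otic epithelium and of mesenchyme differ between these same libraries, as given above. The endothelial markers were also each higher in vestibular than in cochlear neurons, among them Cdh5 (2598.3 against 260.9) and Kdr (2217.8 against 226.6). The part of all these markers in the differences was not tested.

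RefSeq promoter windows (GRCm38.p6, 250 bases before to 50 after a start site) were found for 70 of the 87 genes. They were searched on both strands for GCGCATGC, the core bound by the nuclear respiratory factor NRF1, for CCGGAAG, bound by ETS factors such as GABPA, and for AAGATGG, bound by YY1, the regulators known for these genes. GCGCATGC was in 15.7% of the 70, against 5.44% of 11637 genes of the table with a window and 3.05% of all 27025 genes with one. CCGGAAG was in 24.3%, against 17.7% and 9.93%, and AAGATGG in 15.7%, against 7.79% and 7.28%. At least 1 of the 3 was in 47.1%, against 27.7% and 18.6%. CCGGAAG and AAGATGG share 3 letters at their ends and can overlap. ACGTG, the core bound by hypoxia-inducible factors, was added after the values of Ndufa4l2 were seen. It was in 24.3%, against 28.1% and 21.8%. Neither Ndufa4l2 nor Cox4i2 has a window here, so this search does not cover them. The windows shown are those of the members that differed most between the organs in either direction, Ndufa6 and Ndufaf4, of Sdhb, which had 2 of the motifs, and of the muscle isoform gene Cox7a1, which had none of the 3. Each is given 5′ to 3′ in the direction of the gene, and capitals mark GCGCATGC or CCGGAAG on either strand, so that GCATGCGC is GCGCATGC read on the other strand and GCGCATGCGC holds it on both.
Ndufa6 promoter, chr15:82354242-82354541, minus strand: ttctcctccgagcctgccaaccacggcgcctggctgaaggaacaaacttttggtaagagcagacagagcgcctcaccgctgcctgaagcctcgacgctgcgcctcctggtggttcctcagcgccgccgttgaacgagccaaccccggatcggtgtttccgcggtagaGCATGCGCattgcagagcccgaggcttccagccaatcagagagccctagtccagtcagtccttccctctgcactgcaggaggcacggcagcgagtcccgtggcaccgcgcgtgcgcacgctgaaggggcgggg
Sdhb promoter, chr4:140961021-140961320, plus strand: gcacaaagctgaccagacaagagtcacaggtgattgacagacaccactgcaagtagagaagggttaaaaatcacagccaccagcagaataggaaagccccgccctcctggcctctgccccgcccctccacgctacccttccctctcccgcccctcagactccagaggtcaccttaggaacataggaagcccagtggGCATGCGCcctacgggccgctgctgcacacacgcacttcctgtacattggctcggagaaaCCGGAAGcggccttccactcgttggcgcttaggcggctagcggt
Ndufaf4 promoter, chr4:24897833-24898132, plus strand: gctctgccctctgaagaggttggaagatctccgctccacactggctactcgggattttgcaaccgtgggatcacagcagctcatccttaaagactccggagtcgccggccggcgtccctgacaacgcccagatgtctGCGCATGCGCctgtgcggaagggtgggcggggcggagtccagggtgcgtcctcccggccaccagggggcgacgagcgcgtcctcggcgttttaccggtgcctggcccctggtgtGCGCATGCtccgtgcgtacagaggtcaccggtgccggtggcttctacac
Cox7a1 promoter, chr7:30183921-30184220, plus strand: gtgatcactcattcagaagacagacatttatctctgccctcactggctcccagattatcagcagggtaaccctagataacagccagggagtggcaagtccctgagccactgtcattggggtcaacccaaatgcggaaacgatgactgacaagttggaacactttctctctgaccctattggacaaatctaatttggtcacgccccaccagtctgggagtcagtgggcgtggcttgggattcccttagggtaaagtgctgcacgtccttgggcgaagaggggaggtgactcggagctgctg
Ndufa6 and Ndufaf4 both held GCGCATGC, although their values differed in opposite directions between the cochlear and vestibular libraries. A match of letters does not show binding.

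Some members cannot be measured with certainty. Of the 80 subunit genes, 24 have an annotated near-identical copy elsewhere in the genome (at least 95% identity over at least 150 bases of transcript), and the sources used here do not say how reads matching both were counted. Atp5l has 9 such copies, Atp5h 4 and Uqcrb and Cox7c 3 each. The highest of the 8 values was under 150 for 7 of the 24 genes with a copy and for 2 of the 56 without. Atp5l, a subunit gene of the Fo part, had 36.1 in cochlear and 65.5 in vestibular neurons and 20 to 50.3 in the other 6 libraries. The values of Uqcrb, 187.6 in cochlear and 415.1 in vestibular endothelium against 84.8 to 180.6 in the other 6 libraries, carry the same doubt, as do those of Ndufab1, Atp5g1, Atp5g2, Cox6c and Cox7a2l. The difference in endothelium depended on this choice of genes: its median was 0.20 over the 24 subunits with a copy and -0.34 over the 56 without. The cochlear minus vestibular median in endothelium was 0.05 over the 24 and 0.68 over the 56, and in neurons 0.21 and 0.40.

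Of the other genes of the pathway few passed the test. None did among the 9 measured genes of mitochondrial DNA, the 17 of the citrate cycle, 34 of complex assembly and 77 of the mitochondrial ribosome. Of all genes, 7.27% were called higher and 6.68% lower in epithelium, and 5.96% and 5.14% in endothelium. In mesenchyme the shares were 1.82% and 1.51%, in neurons 2.3% and 1.07%, and between the organs 0.0% in either direction. The assembly list was drawn up for complexes II to V, but it also holds the complex I assembly genes Timmdc1, Ecsit, Acad9, Nubpl and Foxred1. The mitochondrial DNA genes had a median difference of 0.76 in neurons and -0.98 in endothelium. Among them mt-Nd2, a complex I subunit gene, had 11376 in cochlear and 5872 in vestibular endothelium, against 12230 to 36220 in the other 6 libraries (log2 difference -1.64, SE 0.54, adjusted p = 0.127). For mt-Nd4, also of complex I, the values were 7536 in cochlear and 9219 in vestibular endothelium, against 17064 to 29455 in the other 6 libraries (log2 difference -1.57, SE 0.33, adjusted p = 0.0532). In the list of 14 electron carriers and exchangers, Gpd2, the mitochondrial glycerol phosphate dehydrogenase, rose in epithelium with 1925 and 1934 in its cochlear and vestibular library, against 645.8 to 1398 in the other 6 (log2 difference 1.02, SE 0.18, adjusted p = 0.0332). Slc25a4, which exchanges ADP and ATP across the inner membrane, fell in endothelium with 3280 in cochlear and 3013 in vestibular endothelium, against 5046 to 9798 (log2 difference -1.02, SE 0.21, adjusted p = 0.049). Cycs, cytochrome c itself, had 37.4 in cochlear and 20 in vestibular epithelium, against 35.4 to 76.8 elsewhere (log2 difference -0.91, SE 0.23, adjusted p = 0.0707). Lyrm7, which helps to insert the Rieske protein into complex III, had the largest organ difference of the assembly list (0.97, SE 0.14, adjusted p = 0.627), with 47 to 73.1 in the cochlear and 22.4 to 32.9 in the vestibular libraries. Of 21 regulators only Epas1, which encodes a hypoxia-inducible factor, passed, with 23711 in cochlear and 19967 in vestibular endothelium, against 87.4 to 4522 elsewhere (log2 difference 4.73, SE 0.68, adjusted p = 0.0271). It was also lower in epithelium (-4.30, SE 0.68, adjusted p = 0.0247). Ppargc1a, the coactivator known for driving mitochondrial biogenesis, had 413.3 in cochlear and 453.4 in vestibular neurons, against 23.9 to 181.3 elsewhere (log2 difference 2.24, SE 0.45, adjusted p = 0.079). Its 2 neuronal values lay above the rest, and the difference missed the threshold.

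Other lists were set beside the subunits in the same way. In neurons and endothelium the cochlear minus vestibular medians were 0.42 and 0.87 for the 21 genes of glycolysis, against 0.33 and 0.46 for the subunits. They were 0.37 and 0.43 for the mitochondrial ribosome, 0.51 and 0.70 for the assembly list described above and 0.34 and 0.23 for the citrate cycle. The 104 genes taken by symbol for the cytosolic ribosome, with pseudogenes and a few kinases among them, had 0.14 and 0.49. The 14 electron carriers and exchangers had -0.049 and 0.077, and the 9 mitochondrial DNA genes 0.00 and -0.15. Of the cytosolic ribosome list, Rps28, Rps7, Rps16, Rpl35 and Rpl36a were called lower in epithelium, beside 6.68% of all genes. In endothelium Rps28, Rps7, Rps16, Rpl34 and Rps27 were called higher and Rpl22 lower, beside 5.96% and 5.14%. Apart from Rpl22, and Rps28 in endothelium, their values were at most 144.6. Near-identical copies were searched for the oxidative phosphorylation genes alone. Neither these ribosomal genes nor Cycs were checked for copies, so their low values and calls carry that doubt. The 5 genes of the rest of the table whose log2 levels followed the mean profile of the subunits most closely were 1810027O10Rik (Pearson r = 0.993), Dpp9 (0.981), 1500032L24Rik (0.975), Preb (0.974) and Osbpl7 (0.969). These correlations are over 8 libraries that share their scaling, are the highest of many and are given as a description.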

How the data were processed

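The mRNA-seq values were used as deposited, as a signal per gene and library that the authors had made from reads aligned with TopHat 1.0.0 to GRCm38, per the submitters' processing notes. The counting and scaling steps are not stated. Sorted values were identical between the 8 libraries, and 2058 genes per library lay at the floor of 20. Of the gene symbols, 20 that had been turned into dates were restored from their identifiers. Counts had been planned for, but the files held normalized values, so no count model was fitted and no counting error could be given.

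Values were analysed as log2(value + 1) with limma 3.58.1 (R 4.3.3, empirical Bayes with trend, prior degrees of freedom 1.65), with terms for cell type and organ, which left 3 residual degrees of freedom, and p-values were adjusted over all 15275 genes (Benjamini-Hochberg). No filter was applied, and 208 genes at the floor in all libraries took part. The cochlear and vestibular libraries of a population were also compared as single values, with 2-fold as the limit. Near-identical copies were found with blastn 2.17.0, and other steps used Python 3.11.15, numpy 2.4.6 and pandas 2.3.3. The fit was tested on simulated data. Alternatives were a pseudocount of 10, a highest value of at least 100, the floor subtracted, median-of-ratios scaling, no trend, fewer model terms, subunits only, means for medians and leaving out each library. Leaving out both vestibular neurons and vestibular endothelium, the members without a copy and the ACGTG motif were added after seeing the data.

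The genes named are those called, the 4 highest and the 4 lowest differences of a comparison, the paired isoforms, the catalytic core and, of other lists described for a comparison, genes among the 2 largest differences there. The largest differences of the citrate cycle and mitochondrial ribosome lists, which the rule also covers, are not named. For the cytosolic ribosome list only the genes called are named. Members shown only for a difference within 1 pair, among them Cox5b and Ndufb8, were chosen after their values were seen. The members and lists were chosen with earlier results of these data known. The values of 1 catalytic core gene are not reported here, although it is included in the counts and medians.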

Additional observations from a re-analysis of the deposited data

Results flagged for a closer look

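The median cochlear minus vestibular difference over the 80 subunit genes had opposite signs between populations. It was -0.16 on the log2 scale in mesenchyme, against 0.33 in neurons, and -0.16 in mesenchyme, against 0.46 in endothelium. Each value compares 1 cochlear with 1 vestibular library, and the difference between the populations was not tested.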

How the results depend on the processing

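The number of members called was 1 in epithelium, neurons and endothelium and 0 in mesenchyme. In epithelium it was 2 after median-of-ratios scaling and 2 without the organ term, and in mesenchyme 1 with the floor subtracted. Without both vestibular neurons and vestibular endothelium it was 0 in epithelium, 0 in neurons and 0 in endothelium. Leaving out 1 library at a time gave 0 to 1 in epithelium, 0 in all 8 cases in neurons and 0 to 1 in endothelium.

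The largest medians by complex in the fit to all libraries were those of complex I assembly, 0.70 in endothelium and -0.47 in epithelium. With 1 library left out, these ran from 0.19 to 1.34 and from -0.77 to -0.055. In epithelium the same fit gave 0.080 for accessory complex I, 0.15 for complex II and -0.058 for complex III. Fo and stalk had -0.094 there. Complex I assembly had -0.19 in mesenchyme, and complex II 0.11 in neurons. Medians by complex moved with the setting. Without both vestibular libraries they were, in epithelium, -0.14 for the accessory subunits of complex I, -0.0084 for complex II, -0.37 for complex III and -0.19 for Fo and stalk, in mesenchyme -0.11 for complex I assembly, in neurons 0.21 for complex II and in endothelium -0.21 for complex II. Median-of-ratios scaling gave -0.039 for Fo and stalk in epithelium and -0.22 for complex I assembly in mesenchyme. As means, Fo and stalk had -0.16 in epithelium and 0.12 in endothelium, complex I assembly -0.28 in mesenchyme and 0.14 in neurons, and complex IV 0.30 in neurons. Over members without a copy, Fo and stalk had -0.0072 in epithelium, -0.033 in neurons and -0.33 in endothelium, and over genes reaching 100 it had -0.11 in endothelium.

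With 1 library left out, the epithelial median ranged from -0.037 to 0.23 for F1 and from -0.14 to -0.085 for Fo and stalk, and the mesenchymal median from -0.40 to -0.090 for complex I assembly. In neurons the range was -0.32 to 0.16 for the accessory and 0.11 to 0.43 for the assembly genes of complex I, 0.075 to 0.21 for complex II, 0.0083 to 0.14 for complex III and 0.055 to 0.22 for complex IV. In endothelium it was -0.41 to -0.21 for complex II, -0.88 to -0.18 for F1 and -0.032 to 0.092 for Fo and stalk.

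Without both vestibular libraries the difference of Cox4i2 in neurons was -0.042 and that of Ndufaf1 in endothelium -0.16, and the organ differences were 0.026 for Ndufaf4, -0.086 for Ndufb7 and -0.049 for Ndufa6. With 1 library left out, Cox4i2 in neurons ranged from -0.042 to 2.48 and Ndufaf1 in endothelium from -0.16 to 1.86. The cause of these changes was not tested. The labels carry no replicate numbers, so no fit with a replicate block was made. The organ comparison sets the 2 libraries of each population against each other through its cell type term. The unknown depth and the lack of replicates limit every comparison.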

Other observations

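Of 21 genes of glycolysis, the other route to ATP, 1 was called higher in epithelium and 1 higher and 2 lower in endothelium, beside 7.27%, 5.96% and 5.14% of all genes, and 0 in mesenchyme and neurons. The median over the 21 was 0.50 in epithelium, 0.26 in mesenchyme, -0.25 in neurons and -0.12 in endothelium on the log2 scale. Slc2a1, the glucose transporter of the blood-tissue barrier, had 35074 in cochlear and 26234 in vestibular endothelium, against 791.3 to 2809 in the other 6 libraries (log2 difference 4.37, SE 0.43, limma adjusted p = 0.0169). Ldhb, which encodes the heart-type subunit of lactate dehydrogenase, had 271.9 in cochlear and 581.8 in vestibular endothelium, against 1203 to 3554 elsewhere (-2.44, SE 0.30, limma adjusted p = 0.0212). Hk2, a hexokinase, was also lower in endothelium, with 56.9 in the cochlear library and the floor of 20 in the vestibular one, against 162.8 to 890.8 (-3.38, SE 0.57, limma adjusted p = 0.034). Aldoc, an aldolase known from brain, had 2534 in cochlear and 5371 in vestibular epithelium, against 21.5 to 402.4 (4.41, SE 0.87, limma adjusted p = 0.041).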
